A study of Mus musculus with 21 samples.

Results

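The large olfactory receptor gene clusters of mouse chromosomes 2 and 9 were examined in the DNA that stayed in nucleosomes in sperm. They were chosen by position alone, as all CpGs listed at chr2:85200000-90200000 (5 Mb) and chr9:38000000-39900000 (1.9 Mb) of the mm9 build. These 6.9 Mb held 17223 listed CpGs, 12027 on chromosome 2 and 5196 on chromosome 9, of 15544856 in the whole table. The table comes from 1 library of C57BL/6 sperm, collected by swim-up (C57BL/6J mice) and digested with micrococcal nuclease to mononucleosomes before bisulfite conversion, which leaves methylated cytosines readable as C. The study asks where nucleosomes are kept in sperm and how this relates to CpG density and methylation; the other 20 samples of the series, of sperm and round spermatids, were not analysed here. With 1 library there is no biological replicate and no test between groups, so the intervals below cover counting error only and spreads are over windows of the genome.

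Olfactory receptors are the odorant receptors of the nose, and their genes form the largest gene family of the mouse, arranged in clusters of many similar copies. Each olfactory sensory neuron expresses a single receptor allele, and the clusters are silent in most other cell types. They lie in AT-rich DNA, and their promoters generally lack CpG islands, the CpG-dense and usually unmethylated stretches found at many other promoters. In sperm most histones are replaced by protamines, and the library samples the DNA of the nucleosomes that stay.

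Promoter sequences show how few CpGs the receptor genes offer. In RefSeq on GRCm38.p6, the largest run of neighbouring Olfr genes had 222 protein-coding genes on chromosome 2 and 95 on chromosome 9, of which 186 and 79 had a promoter sequence in the table used. The median was 1 CpG in the 250 bases before the annotated start in both runs, against 7 and 8 for the genes of the 2 chromosomes that are not olfactory receptors. No CpG at all was found in 46.2% and 44.3% of the receptor promoters, against 5.43% and 5.98% of the others. None of the receptor promoters had 10 or more CpGs, whereas 42.9% and 44.5% of the others did. These counts include genes with short models, whose 250 bases may not be the promoter. The build differs from that of the methylation table, so these genes are not assigned to measured positions. For each run, a promoter with the median CpG number and the one with the most CpGs are shown, chosen among genes with models of at least 2000 bases, since in shorter models the annotated start can be that of the coding exon. The highest number among all receptor promoters was 7 on chromosome 2 and 5 on chromosome 9. They are given 5′ to 3′ on the gene's strand, with each CpG in capitals:
Olfr1030 (chromosome 2, 1 CpG): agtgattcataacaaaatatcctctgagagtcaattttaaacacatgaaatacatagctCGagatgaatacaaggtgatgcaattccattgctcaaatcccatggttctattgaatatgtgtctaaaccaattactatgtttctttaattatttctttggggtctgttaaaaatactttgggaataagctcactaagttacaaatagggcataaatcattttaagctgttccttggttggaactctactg
Olfr1506 (chromosome 2, 4 CpGs): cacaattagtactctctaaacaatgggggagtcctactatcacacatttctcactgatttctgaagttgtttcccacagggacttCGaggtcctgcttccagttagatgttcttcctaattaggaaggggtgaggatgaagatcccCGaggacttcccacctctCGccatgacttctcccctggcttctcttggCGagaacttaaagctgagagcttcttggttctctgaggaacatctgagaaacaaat
Olfr913 (chromosome 9, 1 CpG): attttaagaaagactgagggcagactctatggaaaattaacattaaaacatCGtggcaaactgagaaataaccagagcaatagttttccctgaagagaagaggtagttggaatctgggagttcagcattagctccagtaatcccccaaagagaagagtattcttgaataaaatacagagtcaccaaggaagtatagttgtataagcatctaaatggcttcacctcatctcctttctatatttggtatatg
Olfr976 (chromosome 9, 5 CpGs): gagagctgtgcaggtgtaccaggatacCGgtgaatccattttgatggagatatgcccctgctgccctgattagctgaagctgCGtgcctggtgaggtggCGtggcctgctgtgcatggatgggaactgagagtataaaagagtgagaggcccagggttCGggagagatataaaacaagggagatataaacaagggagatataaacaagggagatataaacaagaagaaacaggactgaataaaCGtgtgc
The G and C content had a median of 30.8% and 34.4% in the receptor promoters of the 2 runs and 53.6% and 54.4% in the others.

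Listed CpGs were sparse throughout both clusters. The chromosome 2 cluster had 2.41 listed CpGs per kb (exact Poisson interval 2.36 to 2.45) and the rest of chromosome 2 had 6.54, a ratio of 0.368. The chromosome 9 cluster had 2.73 per kb (2.66 to 2.81) and the rest of chromosome 9 had 6.85, a ratio of 0.399. The regions next to the clusters were denser, with 4.53 and 7.97 listed CpGs per kb in the 5 Mb before and after the chromosome 2 cluster and 5.06 and 9.79 around the chromosome 9 cluster. A CpG without a read is not listed, so these numbers depend on reads as well as on sequence. The share of CpGs without a read, estimated by a truncated negative binomial fit to 1 to 19 reads, was 27.2% in the chromosome 2 cluster and 27.9% in the chromosome 9 cluster, against 14.4% and 14.1% in the rest. In windows of the rest with as few listed CpGs per kb, defined below, it was 27.3% and 24.2%.

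Neighbouring CpGs lay far apart. The median distance from a listed CpG to the next was 186 bp on chromosome 2 (quartiles 47 and 541) and 164 bp on chromosome 9 (44 and 465), against 59 bp in the rest of both chromosomes. CpGs within 10 bp of the previous one made up 7.94% and 8.26% in the clusters and 16.0% and 15.7% in the rest. Of the 1 kb bins, 21.0% in the chromosome 2 cluster and 16.8% in the chromosome 9 cluster had no listed CpG, against 7.83% and 6.11%. In windows of the rest with as few listed CpGs per kb, 18.2% and 16.3% of the bins had none. The longest distance between listed CpGs was 82449 bp in the chromosome 2 cluster and 7390 bp in the chromosome 9 cluster. Without distances above 20 kb the chromosome 2 cluster had 2.47 listed CpGs per kb.

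The local CpG number counts a CpG together with all others listed up to 100 bp away in either direction. Lone CpGs, with a local number of 1, made up 41.8% of the CpGs of the chromosome 2 cluster and 41.0% of those of the chromosome 9 cluster, against 18.3% and 17.8% of the rest. CpGs with a local number of 10 or more made up 0.516% and 1.27%, against 9.25% and 8.70% of the rest. This dense class held 62 CpGs in 11 places (groups more than 1000 bp apart) on chromosome 2 and 66 CpGs in 10 places on chromosome 9.

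Both clusters were highly methylated. The level is the share of methylated reads among all reads of the CpGs with up to 19 reads, a limit that leaves out 4 CpGs of the chromosome 2 cluster and 5 of the chromosome 9 cluster. It was 84.5% on chromosome 2 (Wilson interval 84.1 to 84.9, 32104 reads) and 72.8% in the rest of that chromosome. On chromosome 9 it was 82.1% (81.5 to 82.7, 14287 reads) and 73.9% in the rest. The 5 Mb before and after the chromosome 2 cluster had levels of 72.9% and 70.0%, and those around the chromosome 9 cluster 72.8% and 72.1%.

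At equal local CpG number the higher level of the clusters was gone. With the rest of the chromosome weighted to the local numbers of the cluster, its level was 85.2% on chromosome 2, a difference of -0.667 percentage points for the cluster. On chromosome 9 the weighted rest was at 84.3%, a difference of -2.18 points. Over the 100 kb windows of the chromosome 2 cluster, the difference from the weighted rest had an SD of 3.21 points and a range from -9.59 to 7.61, and 28 of 50 windows were below 0. In the chromosome 9 cluster the SD was 3.76 points, the range was -12.0 to 2.49, and 13 of 19 windows were below 0. The counting interval of the difference was -1.07 to -0.276 on chromosome 2 and -2.81 to -1.56 on chromosome 9. The difference depended on the comparison, with 0.0827 and -0.415 points when only the 5 Mb before and after served for it, -2.10 and -3.61 points with the local number counted over 250 bp, and 4.31 and 5.41 points with no upper limit on reads.

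The small net difference was made of opposite parts. Lone CpGs were less methylated in the clusters, with 84.0% on chromosome 2 (83.3 to 84.6, 5031 CpGs) and 83.5% on chromosome 9 (82.5 to 84.5, 2127 CpGs), against 87.0% and 86.7% in the rest. At local numbers of 3 to 5 the clusters went opposite ways, with 85.7% on chromosome 2 (85.0 to 86.5, 2972 CpGs) against a weighted rest of 85.0%, and 79.5% on chromosome 9 (78.2 to 80.8, 1216 CpGs) against 85.2%, the most negative difference of any class there (-5.62 points). At local numbers of 6 to 9 the clusters were more methylated, with 79.3% on chromosome 2 (77.3 to 81.2, 514 CpGs) against a weighted rest of 69.1%, and 75.2% on chromosome 9 (72.3 to 77.8, 311 CpGs) against 70.2%. At 10 or more the level was 50.5% on chromosome 2 (43.8 to 57.1, 216 reads) against 24.8%, and 64.3% on chromosome 9 (58.1 to 70.1, 241 reads) against 26.4%. From lone CpGs to the densest class the level thus fell less in the clusters than in the weighted rest. On chromosome 9, however, it was already lower at 3 to 5, and the densest class rests on few places. Against equally CpG-poor windows, described below, this turned: there the level fell only from 84.2% and 84.1% to 70.1% and 71.7%.

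**Figure D1:**
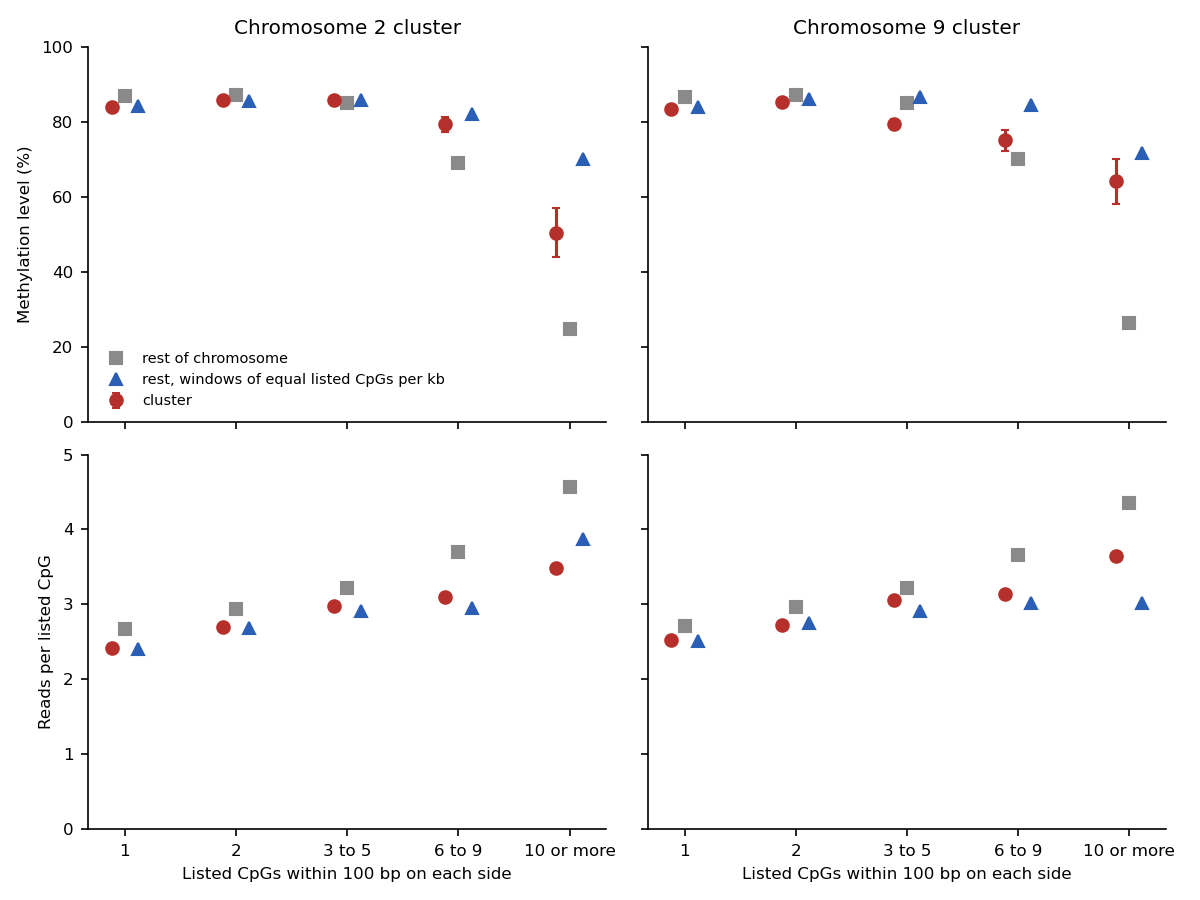
Methylation level in percent (top) and mean reads per listed CpG (bottom) against the local CpG number (100 bp in either direction), for each cluster (red circles, with Wilson 95% intervals for levels), the rest of the same chromosome (grey squares) and windows of the rest with equal listed CpGs per kb (blue triangles), the comparison sets weighted to the numbers of the cluster. Levels of the clusters at 10 or more CpGs, 50.5% and 64.3%, lie above the 24.8% and 26.4% of the rest and below the windows of equal density, and cluster reads lie below the grey squares and near the blue triangles up to 9 CpGs.

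Lone CpGs of other CpG-poor parts of the same chromosomes had levels closer to those of the clusters. Windows of 100 kb in the rest were taken as equally CpG-poor where their listed CpGs per kb lay between the quartiles of the cluster windows, 2.14 to 2.61 on chromosome 2 (108 windows) and 2.295 to 3.1 on chromosome 9 (138 windows). Lone CpGs of these windows had levels of 84.2% (83.8 to 84.6) and 84.1% (83.7 to 84.4), so that the clusters differed from them by -0.255 and -0.506 points with overlapping intervals. A wider set, the full-range windows, had listed CpGs per kb anywhere in the range of the cluster windows (508 and 252 windows). Lone CpGs there were at 85.5% (85.3 to 85.7) and 84.8% (84.5 to 85.0). The clusters differed from these by -1.56 and -1.22 points, and on chromosome 2 the intervals did not overlap. Per window, lone CpGs averaged 83.9% ± 3.73 (SD over 50 windows) in the chromosome 2 cluster and 84.2% ± 4.24 (SD over 108 windows) in its equally CpG-poor windows. The chromosome 9 cluster gave 83.4% ± 2.92 (SD over 19 windows) and its equally CpG-poor windows 84.0% ± 5.28 (SD over 138 windows).

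Over all local numbers, the chromosome 2 cluster differed by -0.348 points from its equally CpG-poor windows and the chromosome 9 cluster by -3.06 points. The densest class, with 10 or more, was at 70.1% in the windows of chromosome 2 (129 CpGs) and 71.7% in those of chromosome 9 (270 CpGs), above the 50.5% and 64.3% of the clusters. In the full-range windows this class was at 40.9% (1353 CpGs) and 52.0% (833 CpGs), below the clusters. The direction in the densest class thus depended on the windows taken. So did that of the 6 to 9 class on chromosome 2, where the cluster was at 79.3%. Its equally CpG-poor windows were at 82.1% and its full-range windows at 77.7%. On chromosome 9 the shortfall was found at local numbers of 3 to 5, with 79.5% against 86.6%, and of 6 to 9, with 75.2% against 84.6%. These CpGs were in part those of the low-methylated stretches described below. Stretches are called by their low level in these same reads, so leaving them out tends to raise the level by construction. Their removal is thus no test of the difference. With such stretches and the 2 kb on each side left out of cluster and windows (1.02% and 3.41% of the cluster CpGs), the difference was -0.0101 points on chromosome 2 and -1.33 points on chromosome 9. For the 3 to 5 class of chromosome 9 it became -2.34 points, with 84.5% in the cluster (83.2 to 85.7, 1133 CpGs), and for the 6 to 9 class -3.00 points, with 84.3% (81.6 to 86.7, 271 CpGs). In the densest class the difference on chromosome 9 widened from -7.43 to -16.6 points (67.1% against 83.7%, 56 CpGs in the cluster), and on chromosome 2 it went from -19.7 to -11.7 points (78.4% against 90.0%, 31 CpGs).

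**Figure D2:**
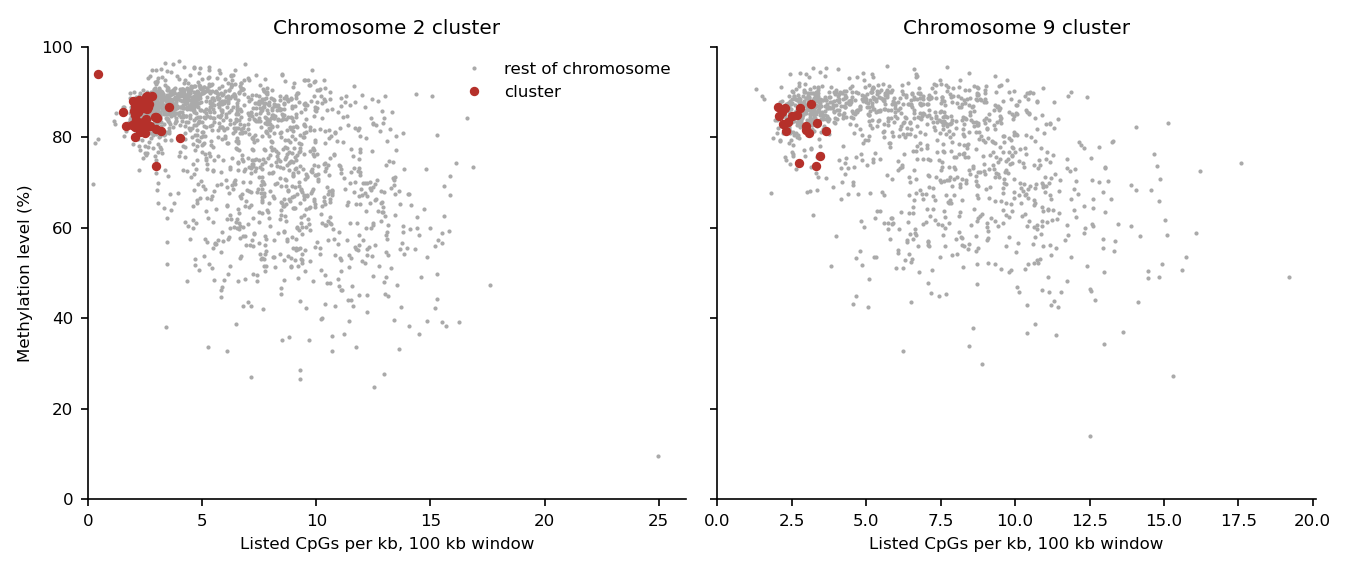
Methylation level in percent against listed CpGs per kb for 100 kb windows of chromosome 2 (left) and chromosome 9 (right), with the windows of the cluster in red and those of the rest of the chromosome in grey. The 50 and 19 cluster windows lie at the CpG-poor edge of both plots, at levels between 73.6% and 94.1%, among grey windows of like density.

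Along the clusters the listed CpGs stayed low and the level varied little. On chromosome 2 the 50 windows of 100 kb had a median of 2.36 listed CpGs per kb (range 0.44 to 4.05), and 4.25% of the 1717 windows in the rest of the chromosome lay below that median. On chromosome 9 the 19 windows had a median of 2.74 (2.02 to 3.65), and 7.23% of 1190 windows in the rest lay below it. Window levels averaged 84.8% ± 3.26 (SD) in the chromosome 2 cluster and 82.5% ± 4.03 in the chromosome 9 cluster. In the rest of the 2 chromosomes the SD was 13.4 and 12.7 points, and in their equally CpG-poor windows 3.41 and 4.26 points. By successive Mb the chromosome 2 cluster had levels of 86.6%, 83.0%, 82.4%, 85.0% and 85.7%, each with a Wilson interval within about a point on either side, and the level was lowest from 1 to 3 Mb.

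The lowest level on chromosome 2 was that of chr2:87000000-87100000, with 73.6% (70.7 to 76.3, 297 listed CpGs). The highest, 94.1% (88.4 to 97.1), was that of chr2:90000000-90100000, which also had the fewest listed CpGs, 44, with 119 reads. Most listed CpGs, 405, were found in chr2:87300000-87400000, at a level of 79.9% (77.5 to 82.1). On chromosome 9 the lowest level was 73.7% (70.8 to 76.3) in chr9:39400000-39500000 and the highest 87.4% (84.9 to 89.5) in chr9:38400000-38500000. The fewest listed CpGs there, 202, were in chr9:39600000-39700000 and the most, 365, in chr9:39800000-39900000. The lowest window of each cluster holds a low-methylated stretch (described below), whose reads are part of the window level.

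**Figure D3:**
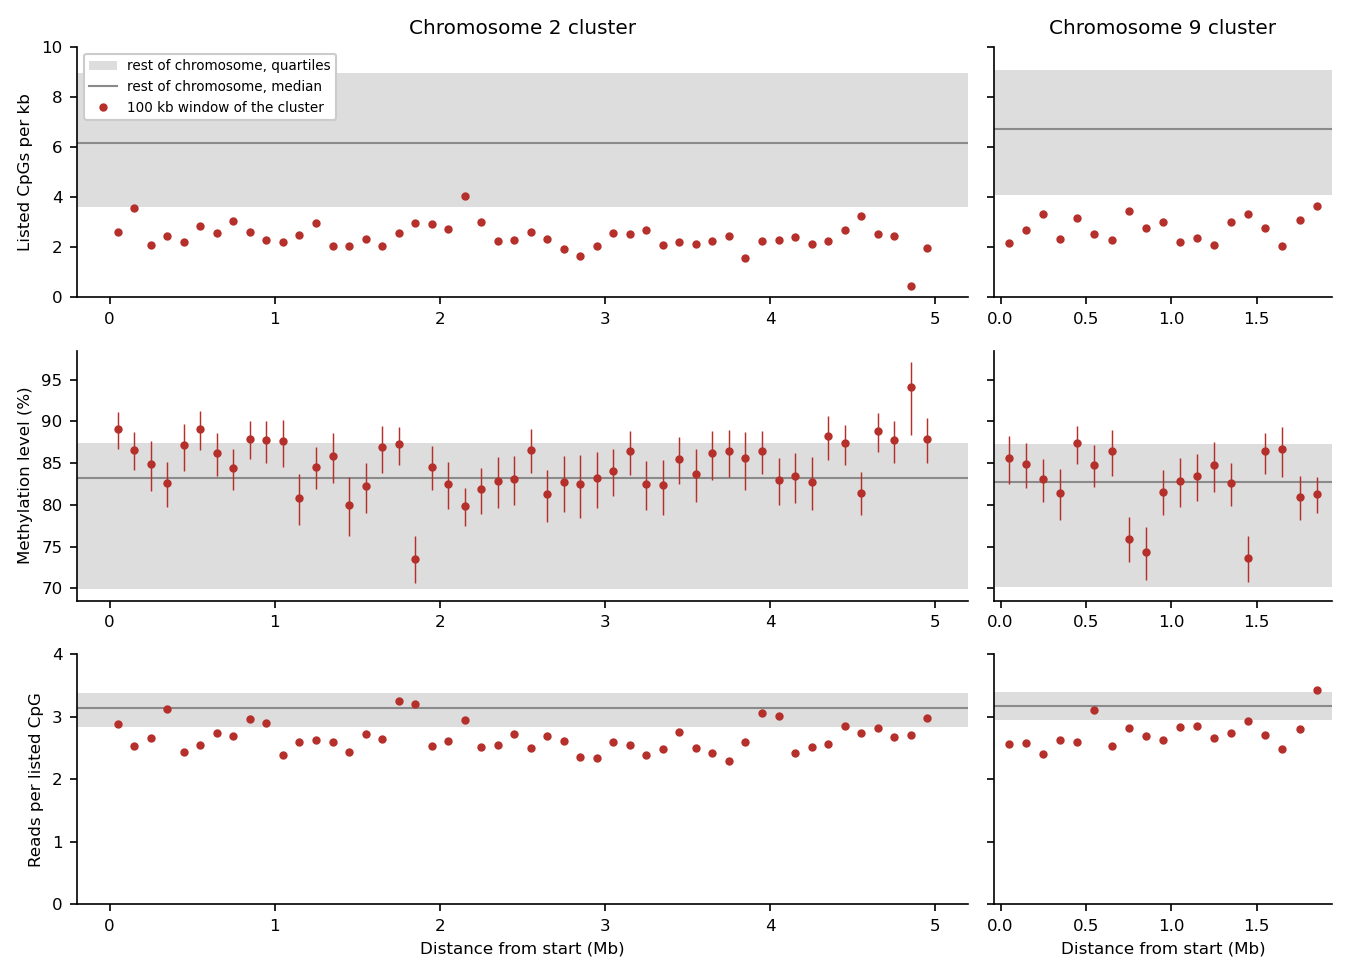
Listed CpGs per kb, methylation level in percent (with Wilson 95% intervals) and reads per listed CpG in the 100 kb windows of each cluster, by distance from its start in Mb; the grey line and band are the median and quartiles of the windows in the rest of the chromosome. The listed CpGs per kb lie below the band in all windows but 1, while single windows drop to 73.6% and 73.7% methylation.

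The 2 clusters were also compared with each other. At equal local CpG number the chromosome 9 cluster was 2.01 points less methylated than the chromosome 2 cluster (82.1% against 84.1%). Its reads per listed CpG were 1.03 times those of the chromosome 2 cluster.

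The reads of a CpG count the nucleosomal fragments that were recovered and placed there. The chromosome 2 cluster had 2.67 reads per listed CpG (exact Poisson interval 2.64 to 2.70; SD 1.92 over CpGs) and the rest 3.29. The chromosome 9 cluster had 2.75 (2.71 to 2.80; SD 2.05) and the rest 3.29. A single read was found at 34.4% and 33.9% of the listed CpGs of the clusters, against 23.4% and 23.2% in the rest, and 5 or more reads at 15.1% and 16.1%, against 23.8% in both. In the equally CpG-poor windows a single read was found at 35.0% and 33.0%, and 5 or more at 14.2% and 15.4%.

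At equal local CpG number the clusters still had fewer reads than the rest of their chromosomes, with a ratio of 0.908 on chromosome 2 and 0.922 on chromosome 9. The ratio was below 1 in 43 of 50 and 17 of 19 windows, with an SD over windows of 0.0761 and 0.0794. It was below 1 in each class of local number, from 0.904 and 0.929 at lone CpGs to 0.764 and 0.838 at 10 or more. Against the equally CpG-poor windows, however, the ratio was 1.01 on chromosome 2 and 1.02 on chromosome 9. Reads in the clusters were thus about those of other DNA with as few listed CpGs per kb. With no upper limit on reads the ratio to the rest was 0.407 and 0.690. Because unread CpGs are not listed, windows with few reads also count as CpG-poor, so this second comparison matches in part on reads themselves. Per 100 kb window, reads per listed CpG ranged from 2.28 (chr2:88900000-89000000) to 3.24 (chr2:86900000-87000000) on chromosome 2. On chromosome 9 they ranged from 2.40 (chr9:38200000-38300000) to 3.43 (chr9:39800000-39900000).

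Over all CpGs of the rest of both chromosomes the level fell steeply with the reads of a CpG, and in the clusters it fell far less. At equal local CpG number this contrast was gone. CpGs with 1 read had levels of 85.9% (84.8 to 86.9) in the chromosome 2 cluster and 85.6% (83.8 to 87.1) in the chromosome 9 cluster, and those with 5 or 6 reads 85.0% (84.1 to 85.8) and 83.1% (81.6 to 84.4). In the rest the same classes went from 82.8% to 73.3% and from 83.1% to 74.5%. At 10 to 14 reads the clusters were at 76.7% (74.0 to 79.1, 95 CpGs) and 71.4% (67.5 to 74.97, 50 CpGs) and the rest at 43.4% and 45.3%. With the rest weighted to the local numbers of the cluster, its levels were 86.4% and 86.0% at 1 read and 79.0% and 79.3% at 10 to 14 reads. At equal local number the level thus fell no less in the clusters than in the rest. The well-read CpGs of the rest were mostly dense ones, with a mean local number of 11.8 and 11.4 at 10 to 14 reads against 2.83 and 3.12 in the clusters.

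**Figure D4:**
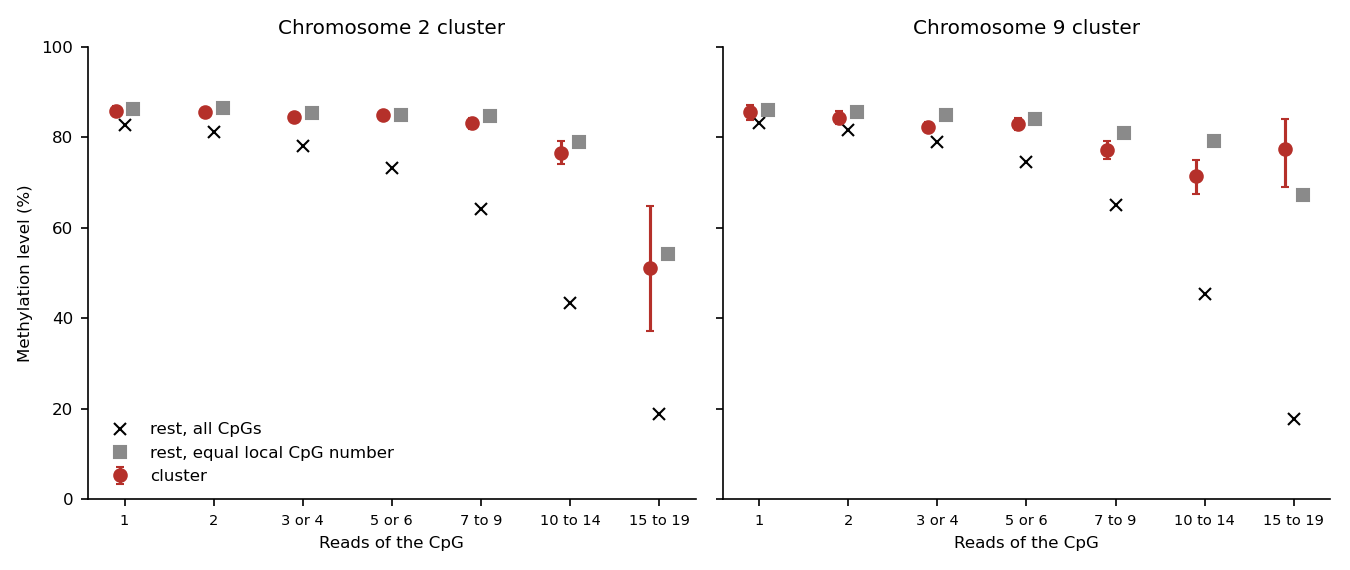
Methylation level in percent against the reads of the CpG for each cluster (red circles, Wilson 95% intervals), all CpGs of the rest of the chromosome (crosses) and the rest weighted to the local CpG numbers of the cluster (grey squares). The crosses fall to 43.4% and 45.3% at 10 to 14 reads, where the clusters are at 76.7% and 71.4%; only 3 and 7 cluster CpGs stand behind the points at 15 to 19 reads.

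A level of a single CpG was read only from 10 or more reads, with no upper limit, which 102 CpGs of the chromosome 2 cluster and 62 of the chromosome 9 cluster reached. Levels under 20% were found at 2 and 4 of these, or 1.96% and 6.45%, against 51.3% and 48.5% in the rest. Levels over 80% were found at 58 and 31 CpGs, against 31.8% and 33.1% in the rest. The remaining 42 and 27, or 41.2% and 43.5%, lay between, against 16.9% and 18.4%. In the equally CpG-poor windows 29.9% of 197 and 30.9% of 320 such CpGs lay between and 2.03% and 1.88% were under 20%. Several of the cluster CpGs between, and some of those under 20%, were neighbours within the low-methylated stretches described below. Such neighbours are not independent, so the shares of the clusters rest in part on few places.

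In 1 kb bins with at least 10 reads, unmethylated DNA was also rarer in the clusters than in the rest, but not rarer than in equally CpG-poor windows. In the rest, 2.64% of the bins of chromosome 2 and 2.42% of those of chromosome 9 had a level under 20%. In the clusters 1 of 1139 bins (0.0878%) and 4 of 492 (0.813%) did, and in the equally CpG-poor windows 1 of 2432 (0.0411%) and 10 of 3815 (0.262%). Intermediate levels, from 20% to 80%, were seen in 30.9% and 33.3% of the cluster bins, in 20.6% and 20.7% of those in the rest and in 28.9% and 28.0% of those in the equally CpG-poor windows. Bins of CpG-poor DNA have fewer reads and so a wider sampling error of the level.

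Low-methylated stretches were runs of at least 4 CpGs with 5 or more reads each, a running level over 3 CpGs under 50% and distances of at most 500 bp. The chromosome 2 cluster had 3 and the chromosome 9 cluster 4, which is 0.6 and 2.11 per Mb against 12.9 and 12.5 per Mb in the rest. Of the CpGs with 5 or more reads, 23.6% of those in the rest of chromosome 2 lay in such stretches and 22% of those in the rest of chromosome 9, but 1.65% (30 of 1820) and 4.17% (35 of 839) in the clusters. Per 1000 such CpGs there were 1.65 and 4.77 stretches in the clusters and 8.30 and 7.68 in the rest. The equally CpG-poor windows had 1.09 and 1.03 per 1000 (4 stretches in 108 windows and 6 in 138), so the chromosome 2 cluster was near them and the chromosome 9 cluster, with its 4 stretches, above. The full-range windows had 2.31 and 2.10 per 1000 (55 stretches in 508 windows and 25 in 252). The chromosome 2 cluster was below these and the chromosome 9 cluster above. The 3 stretches of chromosome 2 lay in windows of 2.97, 4.05 and 3.22 listed CpGs per kb, denser than any of its equally CpG-poor windows. On chromosome 9, stretches 1 and 3 lay in windows of 3.43 and 3.31, also denser than any of its equally CpG-poor windows. Its stretches 2 and 4 lay in windows of 2.74 and 3.06, within the range of those windows. The comparison with the equally CpG-poor windows was thus not at equal density for the stretches in denser windows. The counts of stretches depended on the threshold, with 5 and 9 stretches when CpGs of at least 3 reads were used and 1 in each cluster when the running level had to be under 20%.

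None of the 7 stretches reached 30 CpGs, as 34.6% and 34.9% of those in the rest did, and 6 of them were partly methylated. Their levels were 27.4% to 42.1% except for one at 4.12%, whereas the median in the rest was 6.20% and 6.06%. Levels over 20% were found in all 3 stretches of chromosome 2 and 3 of 4 on chromosome 9, against 42.9% and 41.8% of the stretches under 30 CpGs in the rest of the chromosomes. In the equally CpG-poor windows they were found in 4 of 4 and 3 of 6 stretches, with median levels of 42.7% and 18.7%, and none of these reached 30 CpGs either, so short and partly methylated stretches were not particular to the clusters. In the full-range windows 5 of 55 and 1 of 25 stretches reached 30 CpGs, and 43.6% and 56% had levels over 20%.

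The stretch at chr9:39410373-39412136 was the only nearly unmethylated one. It spanned 1764 bp, and the 12 CpGs used to call it had 4 methylated reads of 97, a level of 4.12% (1.62 to 10.1). All 36 listed CpGs inside it had a pooled level of 3.31% and 4.19 ± 3.09 reads (SD), and the highest level of a CpG used to call it was 16.7%. The 2 kb before it were at 73.5% (34 reads) and the 2 kb after it at 60.0% (5 reads). It lay 488 kb from the nearer end of the cluster, with a local CpG number of at most 8.

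The stretch with the most reads lay at chr2:87076627-87077125 and was part methylated over most of its CpGs. Over 499 bp its 16 CpGs had 53 methylated reads of 180, a level of 29.4% (23.3 to 36.5). Single CpGs ranged from 0 of 6 reads to 4 of 8, with 12 of the 16 between 20% and 80%. Reads were high throughout, at 10.8 ± 3.75 per listed CpG (SD, 17 CpGs), and the level rose to 75% in the 2 kb before (20 reads) and 76.5% in the 2 kb after (85 reads).

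The densest stretch of the chromosome 2 cluster lay at chr2:87366248-87366643, where the local CpG number reached 24. Its level was 27.4% (17.9 to 39.6) over the 62 reads of the 10 better-read CpGs and 20.2% over all 18 listed ones. Its first 128 bp had 3 methylated reads at 12 CpGs, while 2 CpGs further on had 4 of 11 and 5 of 8 reads methylated. The 2 kb before it were also low, at 34.6% (52 reads), and the 2 kb after it at 68.8% (16 reads). The third stretch of the cluster, chr2:89752620-89753051, rests on 4 CpGs with 20 reads and has a level of 30% (14.5 to 51.9).

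On chromosome 9 the stretch at chr9:38762050-38762855 had a level of 30.2% (19.5 to 43.5, 53 reads over 8 CpGs). That at chr9:38881758-38882314 had 32.2% (23.3 to 42.6, 87 reads over 8 CpGs), with its first 2 CpGs at 1 of 7 and 1 of 6 reads and the last 6 between 21.4% and 55.6%. That at chr9:39757702-39758088 had 42.1% (30.2 to 55.0, 57 reads over 7 CpGs). The 3 windows of 100 kb that hold the first 3 stretches of this cluster were its 3 least methylated, at 76.0%, 74.3% and 73.7%. On chromosome 2 the first 2 stretches likewise lay in the least and second least methylated windows. Window levels include the reads of the stretches, which are called by their low level. This match is thus in part by construction and does not describe the DNA around the stretches.

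**Figure D5:**
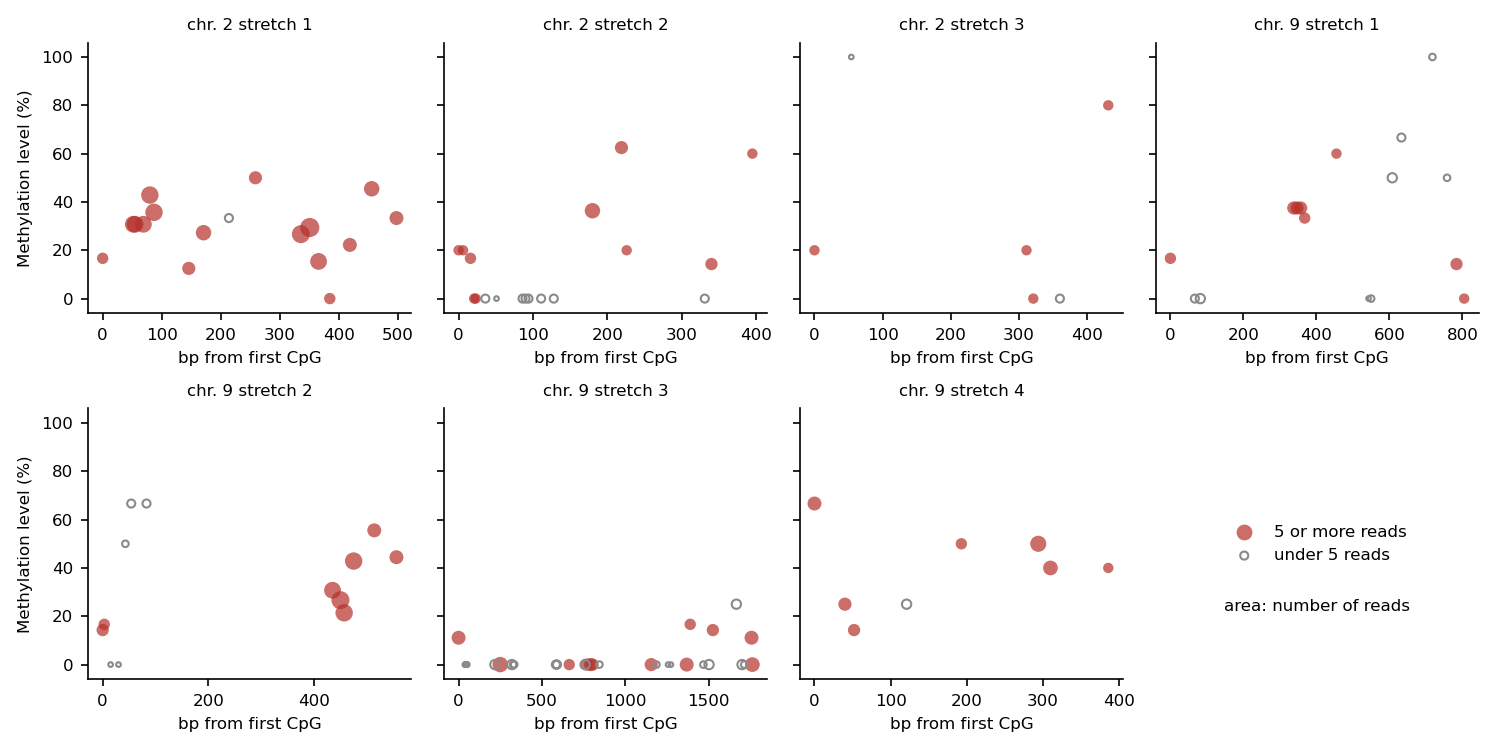
Methylation level in percent of each listed CpG in the 7 low-methylated stretches, by distance in bp from the first CpG; the area of a point is its number of reads, filled for 5 or more reads and open for fewer. Stretch 3 of chromosome 9 (level 4.12%) lies at or near 0 at nearly all CpGs, whereas the others hold partly methylated CpGs.

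Dense places were less often unmethylated in the clusters than in the rest of their chromosomes. Such places were not counted in the equally CpG-poor windows. CpGs with a local number of 10 or more were at 70.1% and 71.7% there, against 50.5% and 64.3% in the clusters. In the full-range windows they were at 40.9% and 52.0%. The places were not matched on local number either. Weighting the rest to the local numbers of the cluster raised its level in this class from 9.81% and 10.7% to 24.8% and 26.4%. Groups of CpGs with a local number of 10 or more and at least 10 reads were found at 6 places in each cluster. One of the 12 had a level under 20%, the place at chr2:87366165-87366376 with 17.6% (11.1 to 26.7, 91 reads over 25 CpGs), which overlaps the stretch described above. In the rest 51.1% of 2782 such places on chromosome 2 and 49.8% of 1942 on chromosome 9 were under 20%. Levels over 80%, seen at 31.5% of the places in the rest of each chromosome, were found at 2 of 6 places in each cluster. These were chr2:87122954-87122964 (12 of 12 reads), chr2:87713118-87713218 (20 of 22), chr9:38225352-38225454 (20 of 22) and chr9:39176767-39176867 (40 of 48). The best read of the intermediate places, chr9:39857836-39858025, had 39 of 75 reads methylated, or 52.0% (40.9 to 62.9).

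CpGs above 19 reads made up 0.0333% of the listed CpGs in the chromosome 2 cluster against 0.0782% in the rest, and 0.0962% in the chromosome 9 cluster against 0.0773%. The 4 on chromosome 2 had 20 to 24 reads and the 5 on chromosome 9 had 33 to 95. No run of 5 such CpGs within 1000 bp occurred in either cluster, and the CpGs within 1000 bp of those on chromosome 9 averaged 2.06 and 2.47 reads. Close neighbours among them could differ widely in level. At chr2:87659644 all 24 reads were methylated, and at chr2:87659678 2 of 24 were. At chr9:38221269, chr9:38221285 and chr9:38221302, 26 of 40, 39 of 41 and 2 of 33 reads were methylated.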

How the data were processed

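Methylation was measured in 1 library of bisulfite converted, nucleosome-associated sperm DNA. Per the file headers, each deposited row holds a CpG's total and methylated read counts, not normalized. Per the submitters' processing notes, Bowtie and mm9 were used. The bisulfite alignment, the treatment of repeated or ambiguous alignments, and the completeness of conversion were not given in the sources used here. This matters where receptor genes are near copies of each other. Positions are as deposited, and whether they count from 0 or 1 is not stated.

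Levels and mean reads used CpGs of up to 19 reads. The rest of the chromosome was weighted to the exact local CpG numbers of the cluster, 1 to 14 and 15 or more, by reads for levels and by CpGs for reads. Other olfactory receptor genes outside the 2 clusters stay in the rest. Intervals are 95% (Wilson, or exact Poisson) and treat CpG reads as independent molecules. PCR reads without molecular identifiers are not, and a fragment that covers several CpGs is counted at each. The intervals are thus too narrow, and whether they overlap is no test of a difference. The depth was 46749 CpG reads in the clusters, with a median of 2 per listed CpG.

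All low-methylated stretches were named, with the extreme 100 kb windows of each cluster by level, listed CpGs and reads. The members and settings were chosen with earlier results of these data known; the equally CpG-poor windows, the dense places and the removal of stretches were chosen after seeing the values. Python 3.11.15, numpy 2.4.6, pandas 2.3.3, scipy 1.17.1 and matplotlib 3.10.9 were used, and the calculations were tested on simulated data.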

Additional observations from a re-analysis of the deposited data

How the results depend on the processing

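No paired analysis was possible because the data come from 1 library. Of 52 alternative values, 24 stayed within the counting interval (stretches: within 1.5 times), 22 moved beyond it and 6 turned in direction. Values are given for the chromosome 2 and then the chromosome 9 cluster; where no cause is stated, the cause was not tested. The ratio of listed CpGs per kb to the rest, 0.368 and 0.399, was 0.315 and 0.344 with CpGs of at least 2 reads and 0.385 and 0.368 against the 5 Mb before and after. The level difference at equal local number, -0.667 and -2.18 points, was 4.31 and 5.41 with no limit on reads, which admits the 888 and 631 CpGs of the rest above 19 reads. It was -2.10 and -3.61 with the local number counted over 250 bp, 0.0827 and -0.415 against the 5 Mb before and after, and -2.72 and -3.45 without low-methylated stretches and the 2 kb beside them. It was -1.10 on chromosome 2 against windows in the full range of the cluster's listed CpGs per kb. On chromosome 9 it was -3.06 against windows between the quartiles and -2.83 without the outer 200 kb. The ratio of reads, 0.908 and 0.922, was 0.407 and 0.690 with no limit on reads, 0.691 and 0.701 by the truncated distribution without matching, 0.979 and 1.0009 against windows in the full range of listed CpGs per kb and 1.01 and 1.02 against those between the quartiles. On chromosome 2 it was 0.929 over 250 bp. The 3 and 4 stretches became 5 and 9 with CpGs of at least 3 reads and 1 and 1 with a running level under 20%. Depth limits the search for stretches, since 15.1% and 16.1% of the cluster CpGs had the 5 or more reads it uses.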
